A study of Mus musculus with 6 samples.

Results

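The enzymes that remove superoxide and peroxides were examined at the RNA level in whole mouse oviducts, over 10 genes: the glutathione peroxidase genes Gpx1, Gpx2, Gpx3, Gpx4, Gpx7 and Gpx8, the superoxide dismutase genes Sod1, Sod2 and Sod3, and the catalase gene Cat. They were taken by symbol from a table of 55276 rows, and they were selected on measured values of the genotype contrast, in which Gpx2 was higher and Sod3 lower in the mutant. Their values in that contrast are therefore given as a description, without a test. Cdc42f/f females (n = 3 libraries), whose Cdc42 gene carries loxP sites around exon 2, were the controls. PgrCreCdc42f/f females (n = 3 libraries) had the same floxed alleles and, in addition, a Cre recombinase knocked into the progesterone receptor gene Pgr. All were adult C57BL/6 mice mated with wild-type males, and oviducts were collected on day 2 of pregnancy. The labels call the libraries biological replicates. A legend of the study counts mice (n = 3 per genotype), so the errors measure the spread between them.

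The model has limits that bear on every value. Per the study, CDC42 protein was lost only from the isthmus, whereas a whole oviduct also holds the regions that kept it. Cdc42 RNA was at 127.6, 130.2 and 142.4 RPKM (read numbers scaled to exon length and library depth) in the Cdc42f/f group against 113.6, 125.5 and 120.9 RPKM in the PgrCreCdc42f/f group, a log2 difference of -0.15 (SE 0.08) that was not called (limma, adjusted p = 0.359). That is a weak check of the labels, since the deposited value covers the whole gene and not the deleted exon alone. The study itself reported lower Cdc42 mRNA by qPCR and lower CDC42 protein by western blot in PgrCreCdc42f/f oviducts. No library carried PgrCre without floxed Cdc42, so the effects of Cre and of the deletion cannot be told apart. The libraries held between 38.1 M and 42.6 M recovered reads, and all 6 epithelial marker genes examined were expressed in every one.

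Superoxide, which leaks from the respiratory chain and is made by NADPH oxidases, is turned into hydrogen peroxide by superoxide dismutases. Hydrogen peroxide is then reduced to water by glutathione peroxidases, which spend glutathione, and by catalase in peroxisomes. The isoenzymes divide the work by place: SOD1 is mainly cytosolic, SOD2 mitochondrial and SOD3 extracellular, while GPX1 and GPX2 act in the cytosol, GPX3 is secreted and GPX7 and GPX8 belong to the endoplasmic reticulum. In the oviduct these enzymes belong to the surroundings of gametes and early embryos, which are sensitive to oxidants.

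The glutathione peroxidases fall into 2 kinds by the codon of their active site, which is shown here because it separates the member with the largest difference from relatives that lack selenium. GPX1 to GPX4 carry selenocysteine, which is inserted at a TGA codon that would otherwise stop translation, whereas GPX7 and GPX8 carry cysteine. The main transcript of a gene is here its lowest-numbered one with a complete coding sequence, and for Gpx1 to Gpx4 also with an in-frame TGA. This choice did not use levels, and which transcripts the oviduct expresses was not tested. The windows below hold 33 coding bases of the main transcript of each gene (GENCODE M21, GRCm38), with the active-site codon in capitals.
Gpx1: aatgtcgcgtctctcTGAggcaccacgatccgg
Gpx2: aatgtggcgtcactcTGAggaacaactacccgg
Gpx3: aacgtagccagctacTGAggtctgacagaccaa
Gpx4: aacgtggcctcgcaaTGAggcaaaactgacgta
Gpx7: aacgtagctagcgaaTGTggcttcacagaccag
Gpx8: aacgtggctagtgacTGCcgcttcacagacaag
The TGA was codon 47 of 201 in Gpx1, codon 40 of 190 in Gpx2, codon 73 of 226 in Gpx3 and codon 129 of 253 in Gpx4, and it was the 1 in-frame TGA in each. Gpx7 has TGT at codon 56 of 186 and Gpx8 has TGC at codon 79 of 209.

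All 10 genes passed the filter for testing (at least 0.5 RPKM in at least 3 of the 6 libraries), which left 17584 genes. None of their exon bases lies on an exon of another annotated gene. A gene is said to be called when the adjusted p of limma on log2(RPKM + 0.1) was below 0.05 over all tested genes. Of the 10 genes, 1 was called higher and 1 lower in PgrCreCdc42f/f oviducts. Over all tested genes 0.762% were called higher and 0.893% lower. The groups did not overlap for 1 gene that was higher and for 4 that were lower, where the shares over all tested genes were 13.5% and 13.9%, or 27.4% in either direction. The lower call was lost without Cdc42f/f replicate 2, Cdc42f/f replicate 3 or PgrCreCdc42f/f replicate 2. Since the contrast chose the genes, nothing is read from these counts or from their persistence. The 3 Cdc42f/f libraries are called controls and the 3 PgrCreCdc42f/f libraries mutants, and their values are listed in the order of the replicate numbers. Differences below are on the log2(RPKM + 0.1) scale, PgrCreCdc42f/f minus Cdc42f/f, and the median difference of all tested genes was 0.01.

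**Figure D1:**
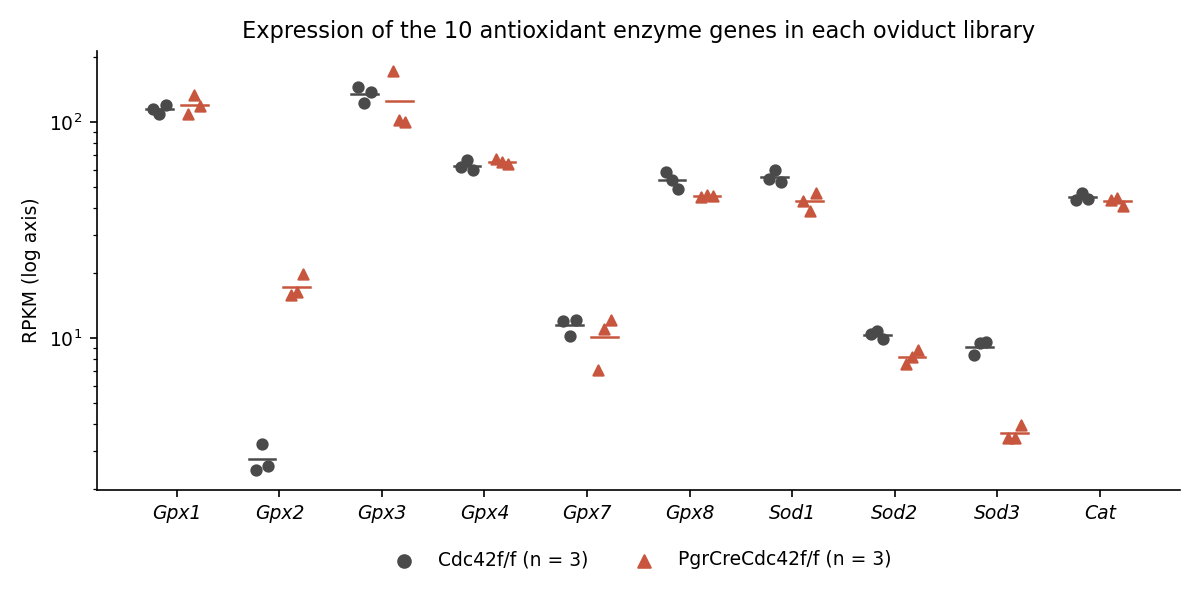
RPKM of the 10 genes on a log axis, with a point for each of the 3 Cdc42f/f libraries (circles) and the 3 PgrCreCdc42f/f libraries (triangles) and a bar at each mean. Gpx2 and Sod3 show the widest gaps between groups, while the points of Gpx1, Gpx3, Gpx4, Gpx7 and Cat are interleaved.

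Gpx2, the epithelial glutathione peroxidase best known from the gut (chromosome 12, 76792333 to 76795554, minus strand), was at 2.46, 3.22 and 2.55 RPKM in controls against 15.8, 16.3 and 19.7 RPKM in mutants. All 3 mutant values lay far above all 3 control values, and the spread within each genotype was small against the gap. Mean levels of 2.74 ± 0.415 and 17.3 ± 2.12 RPKM (SD, n = 3 each) put the mutant 6.30-fold higher, with a log2 difference of 2.61 (SE 0.14). The values rest on between 344 and 480 recovered reads per Cdc42f/f library and between 2230 and 2972 per PgrCreCdc42f/f library. At 344 reads the counting error is 5.39%, which covers sampling of reads only, as reads without molecular identifiers are not independent molecules. Markers of epithelium, the tissue that Gpx2 is known from, did not move alike. Epcam (111.0 to 119.2 RPKM in controls and 145.9 to 159.7 RPKM in mutants), Krt8 (210.9 to 215.1 and 287.4 to 349.6 RPKM), Krt7 and Cdh1 were higher in all mutants, whereas Krt18 and Krt19 overlapped, and the sum of all 6 overlapped at 1217 to 1303 and 1181 to 1371 RPKM. The median log2 difference of these 6 genes was 0.24, none was called by limma (3 at an unadjusted p under 0.05, and 1 called by limma voom), and their part in the difference of Gpx2 was not tested. These are bulk libraries, so for Gpx2 as for the genes below, more or fewer cells of a type and more or less RNA per cell cannot be told apart.

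Gpx2 has a processed pseudogene, Gpx2-ps1 (chromosome 7, 100264675 to 100265245), with which its reads could be confused. It held only between 10 and 25 reads per library, at 1.01, 0.492 and 0.436 RPKM in controls against 0.449, 0.412 and 0.748 RPKM in mutants. The pseudogene lay under the filter, and its reads were too few to compare the groups. How reads were shared between Gpx2 and its copy was not tested.

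Sod3, the extracellular copper and zinc superoxide dismutase that is held at cell surfaces and in the matrix (chromosome 5, 52363791 to 52371418, plus strand), had the opposite pattern. It was at 8.34, 9.44 and 9.61 RPKM in controls against 3.44, 3.45 and 3.98 RPKM in mutants. Again the groups were well apart, each with a narrow range. The means of 9.13 ± 0.690 and 3.62 ± 0.304 RPKM (SD, n = 3 each) differed 2.52-fold, a log2 difference of -1.31 (SE 0.10). Recovered reads were between 1355 and 1734 in the Cdc42f/f libraries and between 548 and 696 in the PgrCreCdc42f/f libraries. As single libraries were left out, the log2 difference lay between -1.38 and -1.27 for Sod3 and between 2.52 and 2.73 for Gpx2.

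**Figure D2:**
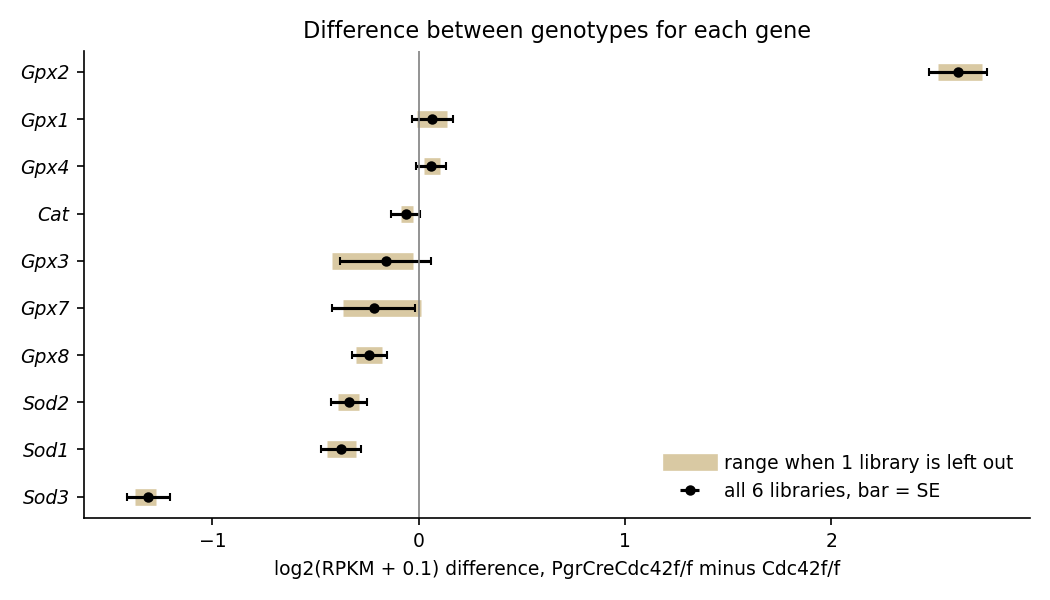
Log2(RPKM + 0.1) difference of each gene, PgrCreCdc42f/f minus Cdc42f/f, with its standard error (points and bars) and the range obtained when each of the 6 libraries is left out in turn (bands). Gpx2 stands at 2.61 and Sod3 at -1.31, and the other 8 genes lie between -0.38 and 0.07.

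The other 2 superoxide dismutases also had lower values in the mutant, by smaller amounts. Sod1, the cytosolic copper and zinc enzyme (chromosome 16, 90220754 to 90226329), was at 54.5, 60.0 and 52.8 RPKM in controls against 43.2, 38.8 and 47.0 RPKM in mutants (log2 difference -0.38, SE 0.10). Sod2, the mitochondrial manganese enzyme (chromosome 17, 13006846 to 13040063), was at 10.4, 10.7 and 9.88 RPKM in controls against 7.60, 8.16 and 8.77 RPKM in mutants (log2 difference -0.34, SE 0.09). For neither gene did the groups overlap, and neither gene was called. Left-out libraries moved the difference between -0.44 and -0.30 for Sod1 and between -0.39 and -0.29 for Sod2. Ccs, the chaperone that loads copper into SOD1, overlapped between groups at 15.5 ± 1.499 and 14.7 ± 1.23 RPKM (SD, n = 3 each, log2 difference -0.07, limma, adjusted p = 0.727).

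Because the 3 genes pointed the same way, their summed RPKM was lower in the mutant. It was between 72.3 and 80.2 in the Cdc42f/f libraries and between 50.4 and 59.7 in the PgrCreCdc42f/f libraries, with means of 75.2 ± 4.30 and 54.8 ± 4.68 (SD, n = 3 each). Sod3 made up 12.2% ± 1.01 of that sum in Cdc42f/f and 6.62% ± 0.251 in PgrCreCdc42f/f oviducts (SD, n = 3 each). The share of Sod1 was 74.1% in controls and 78.4% in mutants, without overlap, and that of Sod2 overlapped at 13.8% and 15.0%. Each sum also depends on the exon length by which the reads of a gene were divided, which is described after the sums.

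The selenium-dependent peroxidases other than Gpx2 did not separate by genotype. Gpx1, the ubiquitous cytosolic enzyme (chromosome 9, 108338903 to 108340343), was at 114.5, 108.9 and 119.9 RPKM in controls against 108.7, 133.3 and 118.5 RPKM in mutants (log2 difference 0.07, SE 0.10). Gpx4, which reduces lipid hydroperoxides in membranes (chromosome 10, 80047166 to 80056439), was at 62.1, 66.4 and 59.8 RPKM in controls against 67.0, 65.0 and 64.2 RPKM in mutants (log2 difference 0.06, SE 0.07). The groups overlapped for both genes, and the sign of the Gpx1 difference turned in 1 setting, with a leave-one-out range of -0.01 to 0.14. Of 2 Gpx4 pseudogenes, both named after their values were seen, Gpx4-ps2 had the higher level, with means of 3.52 and 4.27 RPKM (limma, adjusted p = 0.313), and Gpx4-ps1 had means of 0.353 and 0.615 RPKM (adjusted p = 0.541).

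Gpx3, the secreted peroxidase (chromosome 11, 54902453 to 54910377), was the most variable member between mutant libraries. It was at 145.3, 122.9 and 137.5 RPKM in controls against 172.6, 101.6 and 100.3 RPKM in mutants. One mutant library, replicate 1, was above every control and the other 2 were below every control. The coefficient of variation was 8.44% in Cdc42f/f and 33.2% in PgrCreCdc42f/f oviducts, and the log2 difference of -0.16 (SE 0.22) went from -0.42 to -0.03 as single libraries were left out. For Gpx7 PgrCreCdc42f/f replicate 1 was instead the lowest of all 6 libraries, and the other 2 mutant libraries lay within the control range.

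Gpx7 and Gpx8 belong to the endoplasmic reticulum, where they use peroxide made during disulfide formation. Gpx7 (chromosome 4, 108400390 to 108406961) was at 11.996, 10.3 and 12.2 RPKM in controls against 7.13, 11.0 and 12.1 RPKM in mutants (log2 difference -0.22, SE 0.20). Without PgrCreCdc42f/f replicate 1 its difference was 0.01, so that library alone gave the lower mean. Gpx8 (chromosome 13, 113042753 to 113046410) was at 58.4, 53.7 and 49.1 RPKM in controls against 44.9, 45.8 and 45.5 RPKM in mutants. The mutant values of Gpx8 were all lower and close together, at 53.7 ± 4.66 and 45.4 ± 0.483 RPKM (SD, n = 3 each), but the log2 difference of -0.24 (SE 0.08) was not called.

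Cat, the peroxisomal catalase (chromosome 2, 103453849 to 103485160), was at 43.4, 46.9 and 44.2 RPKM in controls against 43.6, 44.4 and 40.7 RPKM in mutants. The groups overlapped, and the log2 difference was -0.06 (SE 0.07). The remaining family genes are those of specialised tissues. Gpx5, the epididymal enzyme, was listed at 0 in all 6 libraries. Gpx6, an olfactory enzyme, was at 0, 0.474 and 0.197 RPKM in controls against 0.0313, 0.0344 and 0 RPKM in mutants, from at most 30 reads, and was not tested.

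**Figure D3:**
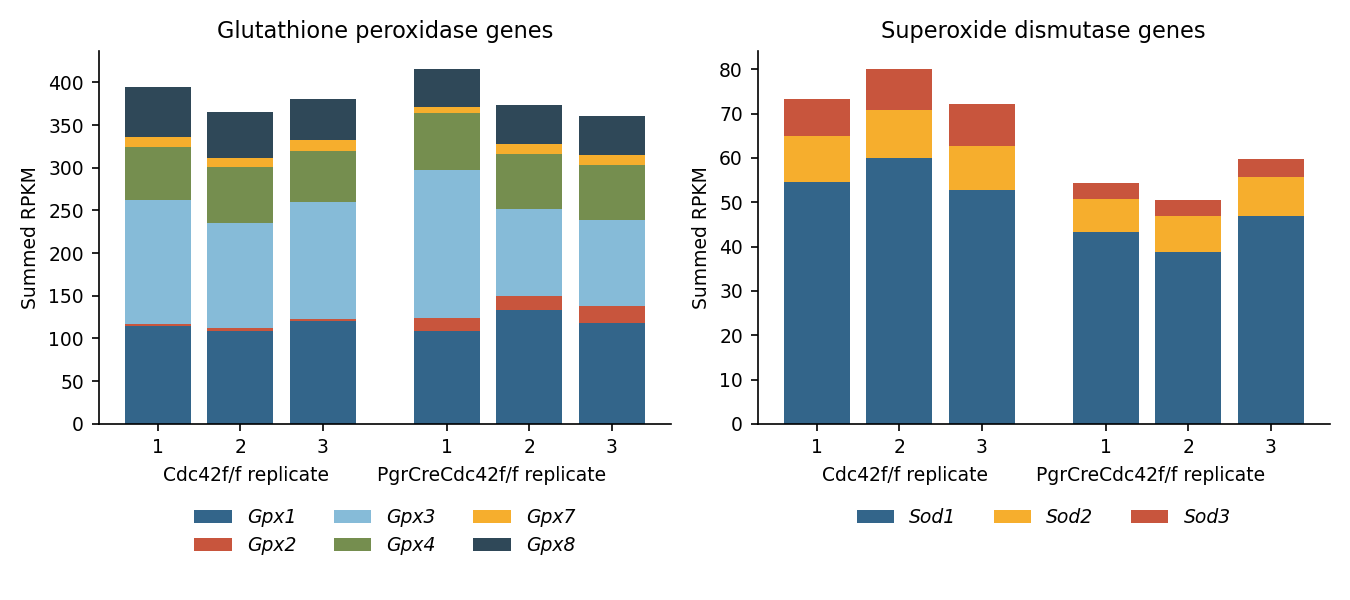
Summed RPKM of the 6 glutathione peroxidase genes (left) and the 3 superoxide dismutase genes (right) in each of the 6 libraries, stacked by gene on axes that start at 0. The peroxidase bars of the 2 genotypes overlap in height, whereas the dismutase bars of the PgrCreCdc42f/f libraries reach 50.4 to 59.7 against 72.3 to 80.2 in Cdc42f/f.

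In contrast to the dismutases, the summed RPKM of the 6 glutathione peroxidase genes overlapped between the genotypes. It was between 365.3 and 394.7 in Cdc42f/f and between 360.2 and 416.2 in PgrCreCdc42f/f libraries, with means of 380 ± 14.7 and 383 ± 29.3 (SD, n = 3 each). Within that sum Gpx2 went from a share of 0.724% ± 0.138 to 4.54% ± 0.849 (SD, n = 3 each), and Gpx8 from 14.1% to 11.9%, both without overlap. On this scale Gpx1 and Gpx3 held between 26.1% and 41.5% each in every library.

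In control oviducts the order of mean RPKM was Gpx3, Gpx1, Gpx4, Sod1, Gpx8, Cat, Gpx7, Sod2, Sod3 and Gpx2. The ranges of Gpx4 and Sod1 overlapped over the 3 libraries, as did those of Sod1 and Gpx8 and of Gpx7 and Sod2. Among the 17584 tested genes the control mean of Gpx3 ranked 220, that of Gpx1 258 and that of Gpx2 11584. In PgrCreCdc42f/f oviducts Gpx2 stood between Cat and Gpx7, clear of both in all libraries, and Sod3 was last. The ranges of Gpx3 and Gpx1 overlapped there, as did Gpx8 with Sod1, Sod1 with Cat, and Gpx7 with Sod2.

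This order depends on the length by which reads were divided. The deposited values match the sum of all annotated exon bases of a gene, retained introns of minor transcripts included. For Sod1 that is 3970 bases against 641 in its main coding transcript, a ratio of 6.19, and for Gpx2 it is 3222 against 1067, a ratio of 3.02. The ratio was 1.73 for Gpx4, 1.71 for Sod2, 1.34 for Gpx1 and 1.14 for Gpx3, and close to 1 for the others. If all reads of a gene came from its main transcript, Sod1 would be the most abundant of the 10, at 345.3 RPKM on average in Cdc42f/f and 266.3 in PgrCreCdc42f/f oviducts.

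Rescaled in this way, Gpx1 and Gpx3 would follow at 153.8 RPKM each in Cdc42f/f, then Gpx4 at 108.7, and Gpx2 would still be last, at 8.28 against 9.13 for Sod3, with overlapping ranges (7.42 to 9.71 and 8.34 to 9.61). In PgrCreCdc42f/f oviducts Gpx2 would lie between 47.7 and 59.5 RPKM, above Gpx8 (45.1 to 46.1) and Cat (40.7 to 44.4) in every library, whereas on the deposited scale it lay below both. The share of Gpx2 in the summed peroxidase RNA would be 1.69% ± 0.308 in controls and 9.99% ± 1.69 in mutants (SD, n = 3 each), and that of Sod3 in the summed dismutase RNA 2.46% ± 0.229 and 1.28% ± 0.0636. The dismutase sums would still not overlap (353.3 to 399.3 and 257.7 to 309.9 RPKM), and the peroxidase sums still would (475.1 to 504.9 and 501.9 to 558.6 RPKM). Differences of single genes between genotypes do not move with the length, as each gene is divided by the same number in all libraries. How the reads were shared among transcripts was not tested, and another choice of main transcript would move these levels and shares.

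**Figure D4:**
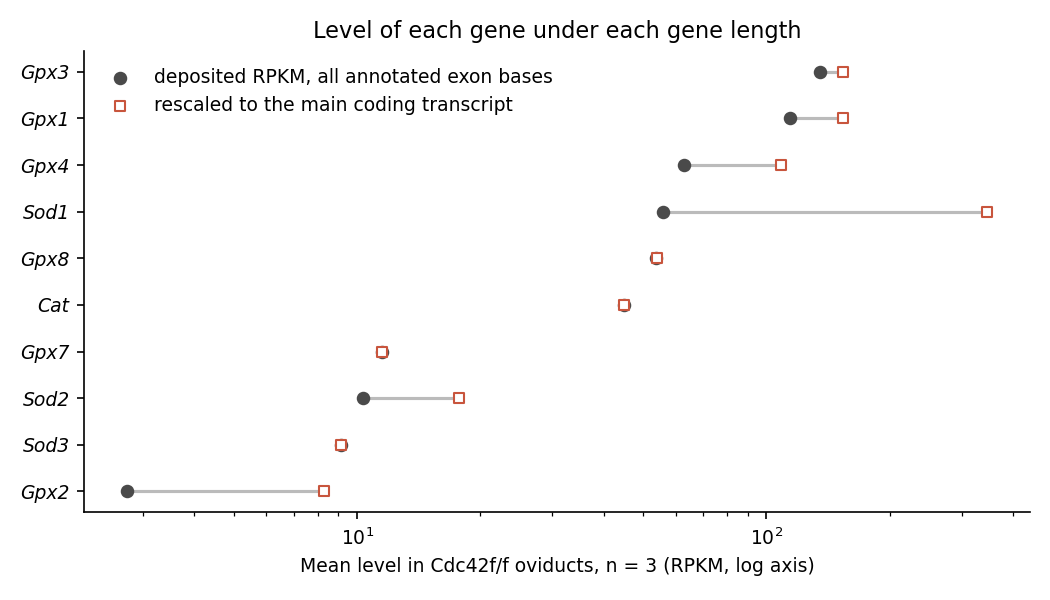
Mean level of each gene in the 3 Cdc42f/f libraries (RPKM, log axis) as deposited, over all annotated exon bases (filled circles), and rescaled to the length of the main coding transcript (open squares). Sod1 moves from 55.8 to 345.3 RPKM and Gpx2 from 2.74 to 8.28 RPKM, while Gpx7, Gpx8, Sod3 and Cat hardly move.

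The start-site regions of Gpx2 and Sod1 are shown because Gpx2 carries the largest difference and Sod1 is the most abundant dismutase. RefSeq windows (GRCm38.p6, from 250 bases before to 50 bases after a start site) were found for 9 of the 10 genes. The stretches printed lie upstream of any exon, at chr12:76795555-76795804 on the minus strand for Gpx2 and chr16:90220512-90220753 on the plus strand for Sod1. Capitals mark matches to motifs that were chosen after these letters had been seen.
Gpx2: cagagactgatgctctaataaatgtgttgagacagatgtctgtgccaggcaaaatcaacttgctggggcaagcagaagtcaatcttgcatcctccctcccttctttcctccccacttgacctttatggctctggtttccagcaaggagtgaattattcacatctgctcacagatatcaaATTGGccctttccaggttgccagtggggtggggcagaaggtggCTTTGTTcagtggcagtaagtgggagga
Sod1: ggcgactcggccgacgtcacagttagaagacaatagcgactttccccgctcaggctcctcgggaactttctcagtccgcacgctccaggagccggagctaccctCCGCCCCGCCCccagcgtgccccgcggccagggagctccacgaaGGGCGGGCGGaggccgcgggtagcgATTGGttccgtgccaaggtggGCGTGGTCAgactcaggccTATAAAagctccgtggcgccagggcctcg
The motifs, read on both strands, were the antioxidant response core TGACNNNGC bound by NRF2 (present in 12.4% of 32851 mouse windows of this length), the AP-1 site TGANTCA (7.81%), the NF-kB site (1.63%), the TCF/LEF site AACAAAG (5.85%), the GC box GGGCGG (35.7%), the CCAAT box (37.4%) and the TATA box TATAAA (13.6%). GC boxes may overlap each other. The Gpx2 window held a CCAAT box at -71 and a TCF/LEF match at -28 from the start site, and no match to the antioxidant response core in these letters. Sod1 was the only one of the 9 genes whose window held that core, at -56, with 4 GC boxes, a CCAAT box at -77 and a TATA box at -37. Such matches describe the letters and are no evidence of binding.

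The genes whose profile over the 6 libraries was closest to that of Gpx2, by root mean square distance of centred log2(RPKM + 0.1) values, were Cldn4 (0.274), Muc4 (0.291) and Pmaip1 (0.292). Cldn4, a tight junction claudin, was at 5.93, 8.28 and 7.30 RPKM in controls against 26.004, 45.0 and 38.9 RPKM in mutants. Muc4 encodes a membrane mucin of epithelia and Pmaip1 the cell death protein NOXA, with log2 differences of 2.50 and 2.57. Closest to Sod3 were Sox6, a transcription factor gene (0.118), Cdkl1, which encodes a kinase (0.122), and Trabd2b (0.132), with log2 differences of -1.25, -1.31 and -1.11. Sox6 was at 1.41, 1.80 and 1.85 RPKM in controls against 0.521, 0.681 and 0.757 RPKM in mutants. The distances rest on 6 libraries of 2 genotypes, so a gene with a genotype difference of like size comes close.

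Genes that work around these enzymes were read from 13 lists of 207 different genes, of which 186 were tested. Of these, 2 were called higher and 3 lower, or 2.69% against 1.65% of all tested genes, and their median log2 difference was -0.02 against 0.01. An unadjusted p under 0.05 was reached by 24.2% of the list genes and by 20.8% of all tested genes, so counts at that level are to be read against 20.8%. The 5 called genes lay in 3 lists, those of NADPH supply, glutathione S-transferases and NRF2 targets.

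**Figure D5:**
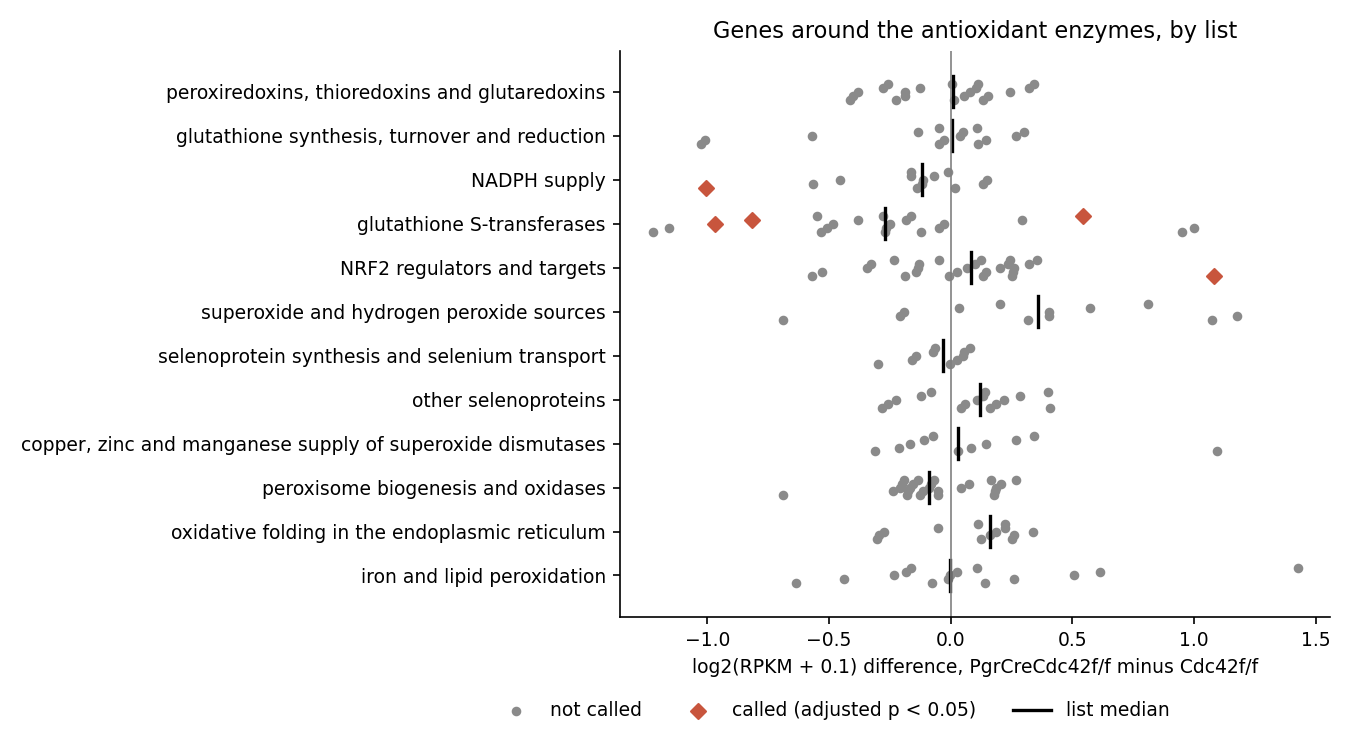
Log2(RPKM + 0.1) difference of each tested gene, PgrCreCdc42f/f minus Cdc42f/f, in 12 of the 13 lists of related genes (the last holds only Ccs among tested genes), with called genes as diamonds and the median of each list as a black line. The 5 called genes, Abcc4, Mgst3, Gstt2, Gstm2 and Tkt, are the diamonds, and the medians of the lists lie between -0.27 and 0.36.

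Glutathione S-transferases, which join glutathione to reactive compounds, held 3 of the 5. Of 22 tested genes 18 had a negative and 4 a positive difference, with a median of -0.27. Gstm2 was at 520.0, 549.6 and 426.2 RPKM in controls against 221.9, 298.3 and 246.0 RPKM in mutants, and fell by 0.97 on the log2 scale (SE 0.15, limma, adjusted p = 0.0431). Gstt2 fell from 25.4 ± 0.936 to 14.5 ± 1.91 RPKM (SD, n = 3 each, log2 difference -0.82, SE 0.11, limma, adjusted p = 0.0292). The microsomal enzyme gene Mgst3, whose product also reduces lipid peroxides, rose from 15.0 ± 1.37 to 21.8 ± 0.471 RPKM (log2 difference 0.54, SE 0.09, adjusted p = 0.0421). Gstm genes are close paralogs, so reads of Gstm2 are less certain.

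NADPH keeps glutathione reduced. Of 13 tested genes of its supply 10 had a negative difference, with a median of -0.12, and Tkt, the transketolase of the pentose phosphate pathway, was called. It was at 44.3, 59.6 and 63.6 RPKM in controls against 27.9, 25.1 and 29.6 RPKM in mutants, and it fell by 1.005 on the log2 scale (SE 0.15, limma, adjusted p = 0.0374). Idh2, the mitochondrial NADP-dependent isocitrate dehydrogenase gene, did not pass, at 51.9 ± 4.78 and 37.8 ± 3.41 RPKM (SD, n = 3 each, log2 difference -0.45, adjusted p = 0.0793, limma). Among 26 tested regulators and targets of NRF2, the transcription factor of the antioxidant response, 15 had a positive difference and the median was 0.08. Abcc4, an export pump of organic anions, was the 1 called gene of that list and rose from 14.0 ± 2.80 to 29.5 ± 4.16 RPKM (SD, n = 3 each, log2 difference 1.08, SE 0.17, adjusted p = 0.0413, limma).

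None of these 5 genes was called in all 6 fits that left out a library. Abcc4, Mgst3 and Gstm2 were called in none of those fits. Gstt2 was called only without PgrCreCdc42f/f replicate 1 or without PgrCreCdc42f/f replicate 3. Over the 13 lists together limma called 4 genes without PgrCreCdc42f/f replicate 1, all lower, and Abcc4, Mgst3 and Gstm2 were not among them. It called 1 gene without Cdc42f/f replicate 1 and 1 without PgrCreCdc42f/f replicate 3. It called 0 without Cdc42f/f replicate 2, Cdc42f/f replicate 3 or PgrCreCdc42f/f replicate 2, where 37, 36 and 38 genes passed an unadjusted p of 0.05.

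The genes of glutathione synthesis, turnover and reduction were not called. Of 14 tested genes 7 had a positive and 7 a negative difference, with a median of 0.01, and 2 passed an unadjusted p of 0.05, both lower. Ggt1, which breaks down extracellular glutathione, was at 3.77 ± 0.438 and 1.85 ± 0.511 RPKM (SD, n = 3 each, log2 difference -1.03, limma, adjusted p = 0.0749), and Chac1, which breaks it down in the cell, had a difference of -1.01 (adjusted p = 0.118). Gsr, the reductase that returns oxidised glutathione to use, had a difference of 0.30 (adjusted p = 0.326).

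The peroxiredoxin, thioredoxin and glutaredoxin genes, another route for peroxide, numbered 20 tested genes with a median of 0.01. None was called (limma), 5 of the 20 passed an unadjusted p of 0.05 (20.8% of all tested genes did), and limma voom on recovered reads called none either. Prdx1, an abundant peroxiredoxin, was at 112.6, 101.7 and 108.6 RPKM in controls against 140.1, 128.2 and 134.9 RPKM in mutants (log2 difference 0.32, limma, adjusted p = 0.0963). Txn1, the cytosolic thioredoxin gene, had a difference of 0.34 (adjusted p = 0.0914) and Sesn1 one of -0.38 (adjusted p = 0.0800), all 3 without overlap of the groups.

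The sources of superoxide and hydrogen peroxide had the most positive median among these lists, 0.36 over 12 tested of 20 genes, with 9 positive. None was called by limma, 7 of the 12 passed an unadjusted p of 0.05 (20.8% of all tested genes did), and limma voom on recovered reads called 1 lower. Ncf1, which encodes a subunit of the phagocyte NADPH oxidase, was at 1.86 ± 0.127 and 2.82 ± 0.286 RPKM (SD, n = 3 each, log2 difference 0.57, limma, adjusted p = 0.0760), with 11.1% of its exon bases on an exon of the opposite strand. Maob, a mitochondrial amine oxidase that releases hydrogen peroxide, had a difference of 1.18 (adjusted p = 0.0660).

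Lists for what the enzymes need were close to the median of all genes. The 10 tested genes of selenoprotein synthesis had a median of -0.03, with none past an unadjusted p of 0.05, and the 16 other selenoprotein genes one of 0.12, with none called by limma and 2 past an unadjusted p of 0.05. For copper, zinc and manganese supply the median was 0.03 over 11 tested genes, of which limma called none and 2 passed unadjusted. Cp, the ferroxidase ceruloplasmin, had the largest difference of these, at 13.03 ± 2.99 and 28.2 ± 7.78 RPKM (SD, n = 3 each, log2 difference 1.09, limma, adjusted p = 0.0717). Limma voom on recovered reads called no gene of these 3 lists.

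The compartments of catalase and of GPX7 and GPX8 also held no called gene. The 25 tested peroxisomal genes had a median of -0.09, with 17 negative, and 2 passed an unadjusted p of 0.05 (limma). The 13 genes of oxidative folding in the endoplasmic reticulum had a median of 0.16, with 9 positive, and 1 passed unadjusted. Limma voom on recovered reads called no gene of either list. The iron and lipid peroxidation list, the setting of GPX4, had a median of 0.00 over 15 genes, and limma called none while 5 passed unadjusted and limma voom called 1 in each direction. In it Gch1, which starts tetrahydrobiopterin synthesis, was at 0.317 ± 0.0517 and 1.03 ± 0.204 RPKM (SD, n = 3 each, log2 difference 1.43, limma, adjusted p = 0.0535), and the phospholipase gene Pla2g6 at 9.75 ± 1.38 and 6.20 ± 0.081 RPKM (log2 difference -0.63, adjusted p = 0.0564).

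Summed markers of other cells did not overlap between the genotypes in 2 of 12 lists, macrophages and adipocytes. Among single tested genes the groups did not overlap for 27.4%, so nothing is read from that count. The 7 macrophage markers, all with positive differences and none called by limma, summed to between 165.6 and 178.6 RPKM in Cdc42f/f and between 219.2 and 364.5 RPKM in PgrCreCdc42f/f oviducts. C1qa, C1qb and C1qc had the highest levels among them in every library. Adgre1 and Csf1r overlapped between the groups, and in PgrCreCdc42f/f replicate 1 both lay below every control, at 4.99 and 9.33 RPKM. Adipocyte markers summed to between 4.5 and 10.1 RPKM in Cdc42f/f and between 0.594 and 2.05 RPKM in PgrCreCdc42f/f oviducts, with Lep at 0 in all libraries and 2 of 6 genes tested, both negative. Neutrophil markers held the 1 called marker gene of the 12 lists. S100a8 was at 0.995, 1.24 and 0.896 RPKM in controls against 7.21, 3.90 and 3.57 RPKM in mutants, and S100a9 at 2.56, 5.75 and 2.02 RPKM in controls against 22.7, 10.2 and 8.26 RPKM in mutants. Of the 5 tested neutrophil genes 3 had a positive difference, while Ly6g and Mmp8 had a negative one. Ly6g was lower in all mutants, at 1.27, 1.15 and 1.76 RPKM in controls against 0.863, 0.250 and 1.04 RPKM in mutants, and Mmp8 overlapped. The summed level of the list overlapped, at 13.4 to 21.1 and 18.9 to 40.1 RPKM. Sums for smooth muscle overlapped, at 1700 to 2636 and 2399 to 2966 RPKM, with all 8 genes positive, as did those for multiciliated cells, at 832.2 to 1196 and 602.3 to 970.8 RPKM, with 7 of 8 negative. Fibroblast sums overlapped, at 561.1 to 769.4 RPKM in controls and 425.9 to 566.2 RPKM in mutants, with 4 genes negative and 2 positive. Those of secretory cells also overlapped, at 2575 to 3881 RPKM in controls and 1599 to 3055 RPKM in mutants, with all 3 genes negative. The part of any of these cells in the differences of Gpx2, Sod3 or the other genes was not tested.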

How the data were processed

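Total RNA of whole oviducts was extracted with TRIzol and sequenced on a BGISEQ-500, 3 libraries per genotype. The authors deposited 1 table of RPKM values for 55276 symbols. HISAT2, edgeR and the build mm10 (GRCm38) appear in the notes that the authors gave on processing, and Tophat2 in the study's methods. Which made the values, and whether strand was used, is not given in the sources used here. Values came out as whole reads in all 6 libraries for 98.7% of 35362 rows when multiplied by the GENCODE M21 exon length and a factor per library (within 0.01 of a read), and 1 read in 1 kb was worth between 0.0207 and 0.0235 RPKM. Recovered reads were between 38.1 M and 42.6 M per library over these rows.

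Log2(RPKM + 0.1) values of genes with at least 0.5 RPKM in at least 3 libraries were fitted with limma 3.58.1 in R 4.3.3 (lmFit, eBayes with a variance trend), 3 libraries against 3 without covariates, after the unpaired design of the study. Benjamini-Hochberg adjustment ran over all 17584 genes, with calls below 0.05. A pseudocount understates the fold change of low genes. The script was tested on simulated data. The members, the lists and the marker genes were chosen with earlier results of these data known. Named were the members, Gpx5, Gpx6, Ccs, Cdc42, Pgr, called genes or the smallest p values of each list, and the 3 nearest profiles of Gpx2 and Sod3. The values of 1 gene that this rule names are not reported here. Mean RPKM of Pgr was 13.4 in Cdc42f/f and 10.8 in PgrCreCdc42f/f libraries (adjusted p = 0.105, limma). The alternatives tried were a pseudocount of 1 or 0.01, no filter, a mean of at least 2 RPKM, median ratio rescaling, quantile normalization, no variance trend, a replicate block, limma voom on recovered reads and leaving out each library. Rescaling levels and sums to the main transcript was added after seeing the data.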

Additional observations from a re-analysis of the deposited data

How the results depend on the processing

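The log2 differences of the 10 enzyme genes kept within the spread between libraries in all settings, except at a pseudocount of 1, which by its construction shrinks the change of low genes (2.29 for Gpx2 and -1.13 for Sod3). Counts of called genes moved far more. Higher and lower genes numbered 134 and 157, 57 and 51 without the filter and 202 and 268 with limma voom, and 75 were higher without the variance trend. When 1 library was left out they were between 9 and 132 higher and between 3 and 179 lower. The counts without PgrCreCdc42f/f replicate 1 (132 and 179) stayed near those of all libraries, whereas leaving out any other library lowered them: Cdc42f/f replicate 1 to 22 and 13, its replicate 2 to 13 and 3, its replicate 3 to 9 and 3, PgrCreCdc42f/f replicate 2 to 12 and 4 and its replicate 3 to 31 and 26. Of the 10 enzyme genes, 1 was called higher and between 0 and 1 lower in these fits. In the related lists 2 genes were called higher and 3 lower, 0 and 0 without the filter (limma, 45 at an unadjusted p under 0.05), 1 and 1 without the variance trend, 6 lower with limma voom, and 0 higher and between 0 and 4 lower when a library was left out. Deviations of samples with the same replicate number correlated at -0.03, -0.07 and 0.08. With so few libraries these values neither show nor exclude a pairing by number. The study used littermates as controls, but which mice shared a litter is not given in the sources used here. With the replicate number as a block limma called 0 genes higher and 0 lower of all tested (3276 at an unadjusted p under 0.05), and therefore 0 of the enzyme genes and 0 of the related lists (40 at an unadjusted p under 0.05). Not every sample correlated best with its own number. Rescaled to the main coding transcript, control levels moved to 153.8 RPKM for Gpx1, 8.28 for Gpx2, 153.8 for Gpx3, 108.7 for Gpx4, 345.3 for Sod1 and 17.7 for Sod2, and the share of Gpx2 among peroxidase RNA in mutants from 4.54% to 9.99%. The cause of the other changes was not tested. The lowest value among the 10 enzyme genes rests on 344 reads, whereas Gpx6 and Gpx2-ps1, with at most 30 and 25 reads, were too low to compare.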
